A study of Homo sapiens with 6 samples.

Results

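FAP and 8 related peptidase genes (DPP4, DPP7, DPP8, DPP9, ANPEP, MME, ENPEP and LNPEP) were followed in U251 cells, a human glioblastoma line (labelled U251MG, glioblastoma astrocytoma, from brain). They are 9 of the 28395 genes in the count table and were found by NCBI gene identifier. They were selected on their symbols, as FAP and the dipeptidyl peptidases with the surface aminopeptidases and neprilysin, by someone who had the difference of FAP between these libraries in view. The comparison of WT with NUAK2-CR cells is therefore given for the members as a description, with no p-value. RNA-seq was made from 3 libraries of U251 cells of genotype WT and 3 of genotype NUAK2-CR, and the labels give no treatment for either group. In the study, U251 cells received lentiviral CRISPR-Cas9 vectors with a guide against the kinase gene NUAK2, and clones were grown from double-fluorescent cells sorted into plates. The labels name no clone of NUAK2-CR, and nothing states that libraries of a group came from separate cultures, so p-values measure only the spread between these libraries.

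Peptidases on the cell surface trim peptides outside the cell, and so set how long hormones, chemokines and neuropeptides act. FAP and DPP4 are serine enzymes that cut after proline. FAP is best known from activated fibroblasts, where it cuts gelatin and alpha-2-antiplasmin, and it is also found in the stroma and tumor cells of glioblastoma. DPP4 (CD26) inactivates incretins and chemokines. DPP8, DPP9 and DPP7 share their substrate preference but work inside the cell, DPP8 and DPP9 in the cytosol and DPP7 in lysosomes and vesicles, so the word surface does not describe these 3. ANPEP (CD13), ENPEP (aminopeptidase A) and LNPEP are zinc aminopeptidases that take single residues from peptide ends, and MME (neprilysin, CD10) is a zinc endopeptidase that breaks down enkephalins, tachykinins and amyloid beta.

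Counts on genes summed to between 29648445 and 55574081 per library, WT replicate 1 being the deepest. Values below are normalized counts, meaning counts scaled by TMM to the mean effective library size. NUAK2, the targeted gene, stood at 1457 to 1926 in the WT libraries and 799 to 961 in the NUAK2-CR libraries, a mean of 52.6% of WT (log2 fold change -0.93, adjusted p = 1.8e-05, edgeR). Of the astrocyte and glioma markers, GFAP (an intermediate filament of astrocytes) dropped to 14984 ± 1129 in NUAK2-CR from 88323 ± 5494 in WT (SD, n = 3 each), and OLIG2 had no count in any library. Of the 11 such markers tested, 7 fell and 1, EGFR, rose at an adjusted p-value under 0.05. In edgeR's quasi-likelihood test over 14873 genes, 54.5% passed an adjusted p-value of 0.05, 26.3% higher and 28.2% lower in NUAK2-CR.

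The sequence upstream of 3 members is shown because they are the zinc enzymes that were far lower (ANPEP), higher (MME) and not detected (ENPEP) in these libraries. The RefSeq table (GRCh38.p14) matched 8 of the 9 members and had no match for FAP. Each line gives the 250 bases before the gene start in the table, 5′ to 3′ on the strand of the gene. Capitals mark matches, on either strand, to 5 short motifs: the TATA box, searched as TATAAA; the CCAAT box; the GC box, searched as GGGCGG; the TEAD motif, searched as GGAATG; and the AP-1 motif, searched as TGANTCA. The windows are chr15:89814853-89815102 on the minus strand for ANPEP, chr3:155079422-155079671 on the plus strand for MME and chr4:110475905-110476154 on the plus strand for ENPEP. For MME this start lies inside the span of the gene given below.
ANPEP: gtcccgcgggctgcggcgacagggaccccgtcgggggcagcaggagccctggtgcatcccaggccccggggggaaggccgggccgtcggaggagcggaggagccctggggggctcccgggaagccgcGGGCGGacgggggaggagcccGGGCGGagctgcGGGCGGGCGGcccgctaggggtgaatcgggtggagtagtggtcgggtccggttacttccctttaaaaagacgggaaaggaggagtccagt
MME: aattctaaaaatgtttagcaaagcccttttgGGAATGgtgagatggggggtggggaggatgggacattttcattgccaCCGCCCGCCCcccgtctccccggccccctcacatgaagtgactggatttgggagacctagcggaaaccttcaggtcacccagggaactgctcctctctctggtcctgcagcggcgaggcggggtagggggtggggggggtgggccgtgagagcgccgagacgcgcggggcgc
ENPEP: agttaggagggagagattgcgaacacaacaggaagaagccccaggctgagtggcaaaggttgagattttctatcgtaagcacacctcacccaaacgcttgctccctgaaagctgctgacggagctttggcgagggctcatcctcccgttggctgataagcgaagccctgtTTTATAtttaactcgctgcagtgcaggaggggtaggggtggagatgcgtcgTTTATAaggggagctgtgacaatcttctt

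ENPEP held TATAAA at 2 places, starting 80 and 29 bases before the gene start. Both matches were on the opposite strand, so the printed strand reads TTTATA. The motif was found, on either strand, in 11.1% of all 27305 promoter windows of that length. ANPEP and MME held no TATA box. The GC box matched 4 times in the ANPEP window, where 2 of the matches overlap, and 2 times, overlapping, in the MME window; 42.3% of all windows hold it. The TEAD motif was in the MME window (11.9% of all windows), and the AP-1 motif was in none of the 8 member windows (6.6% of all windows). The ANPEP window had 26 CpG and 74.0% GC, against medians of 21 CpG and 64.8% GC over the windows of 11650 genes tested and of 11 CpG and 58.0% GC over all windows. MME, with 15 CpG, and ENPEP, with 10, were below the median of the genes tested. The CCAAT box (33.0% of all windows) was absent from all 3. A match is a description of letters and not a site of binding.

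FAP (gene 2191, chromosome 2, 162170684 to 162243445) was the member with the largest rise in fold from WT to NUAK2-CR. The WT libraries, replicates 1 to 3 in turn, held 192, 279.8 and 189 normalized counts of FAP, and the NUAK2-CR libraries held 2188, 2126 and 2079. Every NUAK2-CR library was far above every WT library, and WT replicate 2 was the highest of its group. The means were 220.3 ± 51.5 and 2131 ± 54.4 (SD, n = 3 each), or 9.67-fold higher in NUAK2-CR. The log2 fold change was 3.28 (standard error 0.13), number 75 from the top among 14873 genes, and it stayed between 3.18 and 3.48 in all 13 alternatives. In bulk libraries, more cells with FAP and more FAP RNA per cell cannot be told apart. LOC101929532 shares 2056 bases with the FAP span. Its reads numbered 4, 0 and 0 in the WT libraries and 24, 14 and 5 in those of NUAK2-CR, against 1723 to 1894 counts for FAP in NUAK2-CR.

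DPP4 (gene 1803, chromosome 2, 161992245 to 162074215), the closest relative of FAP and its neighbour on chromosome 2, was almost without reads. The WT libraries held 2, 2 and 4 raw counts of it, and the NUAK2-CR libraries 2, 12 and 2. Apart from NUAK2-CR replicate 2 the libraries were close to the limit of 3 counts that a count of 0 allows, which covers counting error only. The filter on low counts removed DPP4. Without the filter its log2 fold change was 1.35 with a standard error of 1.18, so a difference was not detectable at this depth.

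**Figure D1:**
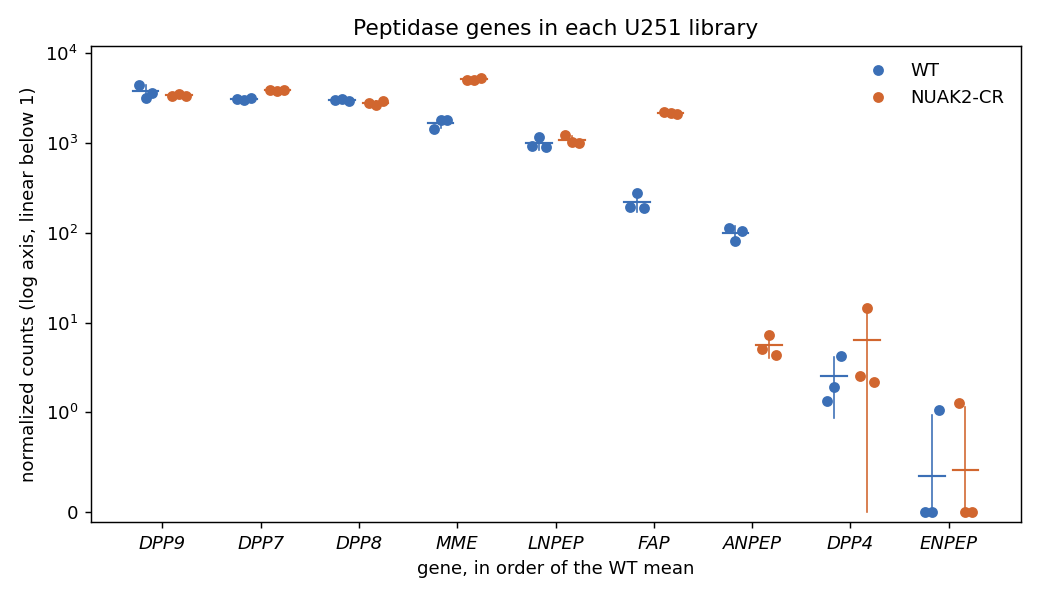
Normalized counts (vertical, log axis, linear below 1) of the 9 peptidase genes in each library, 3 WT (blue) and 3 NUAK2-CR (orange); horizontal lines are means and vertical lines SD, cut at 0. FAP stands at 2079 to 2188 in NUAK2-CR against 189 to 279.8 in WT, ANPEP drops from around 100 to under 10, and DPP4 and ENPEP lie near 0 in both groups.

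The 2 cytosolic enzymes, DPP8 and DPP9, hold back the inflammasome sensors NLRP1 and CARD8. DPP8 (gene 54878, chromosome 15, 65442467 to 65517689) had 2986, 3114 and 2950 normalized counts in WT, against 2764, 2607 and 2899 in NUAK2-CR. The groups did not overlap, yet the log2 fold change was small, -0.13 (standard error 0.07), and did not pass the threshold. DPP9 (gene 91039, chromosome 19, 4675227 to 4723842) had 4464, 3183 and 3589 in WT and 3318, 3540 and 3299 in NUAK2-CR. The groups overlapped, and WT replicate 1 stood above the other 5 libraries. Its log2 fold change of -0.15 (standard error 0.10) was 0.0070 without WT replicate 1 and -0.25, past the threshold, without WT replicate 2. The antisense gene DPP9-AS1 overlaps it and had 31 to 69 counts per library.

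DPP7 (gene 29952, chromosome 9, 137110546 to 137118306) encodes the lysosomal dipeptidyl peptidase, known from resting lymphocytes. It had 3081, 3001 and 3169 normalized counts in WT, against 3887, 3766 and 3909 in NUAK2-CR. All NUAK2-CR libraries were higher, by a narrow margin with little spread. The log2 fold change was 0.32 (standard error 0.06), or 1.25-fold.

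Among the zinc aminopeptidases, ANPEP went the opposite way to FAP. ANPEP (gene 290, chromosome 15, 89784895 to 89814852) encodes CD13, a marker of myeloid cells, fibroblasts and pericytes that cuts angiotensins and enkephalins. The WT libraries held 114, 81.0 and 105 normalized counts of it and the NUAK2-CR libraries 5.08, 7.24 and 4.39, from 172, 84 and 98 and from 4, 6 and 4 counts. Reads fell close to the limit of 3 counts in every NUAK2-CR library, and no library of one group reached the other. The mean went from 100.2 ± 17.2 to 5.57 ± 1.48 (SD, n = 3 each), or 18.0-fold lower, number 107 from the bottom among the genes tested. Its log2 fold change was -4.15 (standard error 0.35), and -3.76 with a prior count of 2.

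ENPEP (gene 2028, chromosome 4, 110476155 to 110565285), which turns angiotensin II into angiotensin III, had 1 count in WT replicate 3, 1 in NUAK2-CR replicate 1 and 0 in the other 4 libraries. It was at or under the limit in all 6, and the filter on low counts removed it. Without the filter its log2 fold change was 0.29 with a standard error of 2.29, so a difference was not detectable at this depth. LNPEP (gene 4012, chromosome 5, 96936080 to 97037513), the insulin-regulated aminopeptidase that travels with the glucose transporter GLUT4 and cuts oxytocin, had 913, 1169 and 891 normalized counts in WT, against 1215, 1014 and 990.2 in NUAK2-CR. The groups overlapped, and the log2 fold change of 0.11 had a standard error of 0.12.

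MME (gene 4311, chromosome 3, 155024202 to 155183729) had 1446, 1820 and 1789 normalized counts in WT, against 5035, 5048 and 5237 in NUAK2-CR. Each NUAK2-CR library held well over the highest WT value. The means were 1685 ± 208 and 5107 ± 113 (SD, n = 3 each), or 3.03-fold higher in NUAK2-CR (log2 fold change 1.60, standard error 0.09). That lay inside the central 95% of all genes tested, which ran from -2.17 to 1.77. MME-AS1 lies on the opposite strand of MME and was not analysed here.

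Over the 9 members, 7 passed the filter on low counts and 4 were called at an adjusted p-value under 0.05, namely FAP, MME and DPP7 higher and ANPEP lower. The share of all tested genes called was 54.5%. FAP and ANPEP also had an absolute log2 fold change over 2, the study's threshold for DEGs, which 4.72% of the genes tested passed (1.89% higher and 2.83% lower). For 5 of the 7 the WT and NUAK2-CR libraries did not overlap, as for 61.4% of all genes tested. The median log2 fold change of the 7 was 0.11, beside -0.01 over all genes tested.

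**Figure D2:**
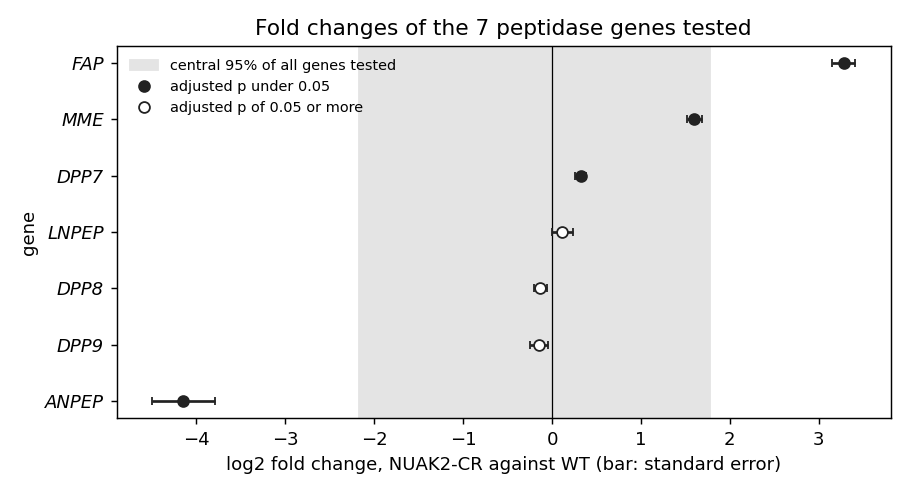
Log2 fold change of NUAK2-CR against WT (horizontal) for the 7 peptidase genes tested, with standard errors; filled points had an adjusted p-value under 0.05, and the grey band is the central 95% of all genes tested, -2.17 to 1.77. FAP at 3.28 and ANPEP at -4.15 lie outside the band on opposite sides, and the others inside it.

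Levels of different genes were compared per length, as normalized counts per kb of the canonical GENCODE transcript. DPP7 ranked first in WT at 1926 ± 52.4 per kb (SD, n = 3), followed by DPP9 at 877 ± 153, DPP8 at 414 ± 11.8 and MME at 298 ± 36.7. The levels of FAP, 81.7 ± 19.1 per kb, and LNPEP, 81.7 ± 12.7, could not be ordered. ANPEP followed at 27.4 ± 4.70, while DPP4 and ENPEP were under 1. In NUAK2-CR the order was DPP7 at 2407 ± 48.0 per kb, MME at 903 ± 19.95, DPP9 at 792 ± 31.3 and FAP at 790.5 ± 20.2, the last 2 differing by less than their spread. MME thus lay above DPP9 and DPP8 in NUAK2-CR and below both in WT on this scale. DPP8, at 379 ± 20.1, and LNPEP, at 88.4 ± 10.2, came next. DPP4 at 1.79 ± 1.96 and ANPEP at 1.52 ± 0.41 did not differ beyond their spread, and ENPEP was last. With the length of all exons together, a choice made after the data were seen, FAP had rank 6 in WT in place of 5 and rank 3 in NUAK2-CR in place of 4.

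FAP and DPP4 lie side by side on chromosome 2 and in the RefSeq table GCG and LOC101929532 lie between them. GCG, which encodes glucagon and the incretin GLP-1 that DPP4 cuts, had 0 counts in all 6 libraries, which allows up to 3 counts in each. On the far side of FAP, IFIH1 (an RNA sensor) had a log2 fold change of 0.49 (adjusted p = 0.000424, edgeR) and GCA (a calcium-binding protein) 0.58 (adjusted p = 7.23e-05). The next gene, the potassium channel gene KCNH7, went from 1, 6 and 0 counts in the WT libraries to 30, 21 and 21 in those of NUAK2-CR (log2 fold change 3.73, standard error 0.72, adjusted p = 0.000837). On the side of DPP4, the pseudogene AHCTF1P1 had -0.35 (adjusted p = 0.0434), and SLC4A10 and TBR1 had too few reads to be tested. The 40 tested genes nearest to FAP, a window chosen after the values were seen, spanned 16.6 Mb. Their median log2 fold change was 0.16. FAP lay 3.12 above that median, and 3 of the 40 were higher than FAP.

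The tested genes next to ANPEP on either side did not pass the threshold. MESP1, a transcription factor gene, had a log2 fold change of 0.35 (adjusted p = 0.16). AP3S2, whose span lies inside that of the readthrough gene ARPIN-AP3S2, had 0.06 (standard error 0.54, adjusted p = 0.935). With 5 to 20 counts of AP3S2 per library, only a large difference of that gene could be detected. WDR93 and MESP2 had too few reads to be tested, and ARPIN-AP3S2 and MIR5094 had none. Among the tested genes farther out in the plot around ANPEP, named after their values were seen, ARPIN rose with 1.13 (adjusted p = 6.92e-08). PEX11A, CIB1, GDPGP1 and TTLL13 fell with -0.33, -0.33, -0.64 and -1.32 (adjusted p = 0.0262, 0.00491, 0.0123 and 0.021). The 40 nearest tested genes had a median of -0.17, and 1 of them was lower than ANPEP. For MME the median of its 40 neighbours was -0.14, and 2 of them were higher than MME. The medians for DPP7 and LNPEP were 0.20 and -0.17. DPP8 and DPP9 differed from the medians of their neighbours, -0.14 and -0.12, by 0.0082 and -0.027.

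**Figure D3:**
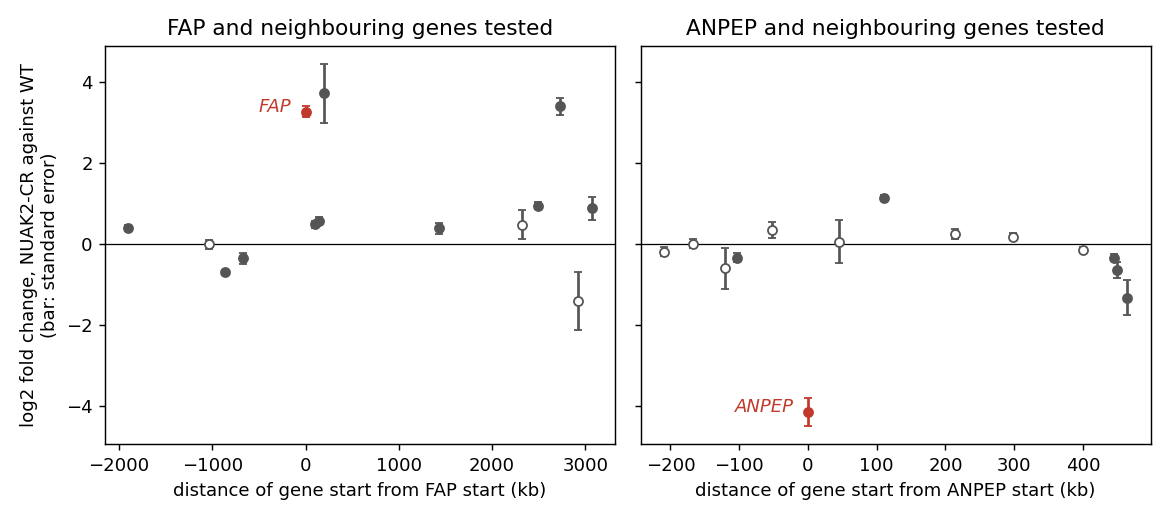
Log2 fold change of NUAK2-CR against WT (vertical, with standard errors) of the genes tested around FAP (left) and ANPEP (right), by distance of the gene start from that of the member in kb; red marks the member, and among the other genes filled points had an adjusted p-value under 0.05. FAP at 3.28, KCNH7 at 3.73 and the more distant SLC38A11 at 3.41 stand above IFIH1 and GCA, at 0.49 and 0.58, and ANPEP at -4.15 stands below each neighbour drawn.

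The genes whose profile over the 6 libraries was most like that of FAP, by Euclidean distance of centred log2 counts scaled to library size, were ARHGAP24 (distance 0.172), FN1 (0.271), FIBIN (0.328), SLC38A11 (0.403) and HAS2 (0.407). ARHGAP24 encodes a GTPase-activating protein for Rac, FN1 fibronectin and HAS2 a hyaluronan synthase. Their log2 fold changes lay between 3.03 and 3.41. For ANPEP the nearest profiles were RBP4 (0.493), CAPS (0.508), HS3ST2 (0.519), NPM2 (0.541) and MAGEA2 (0.573). RBP4 and HS3ST2 had no count in NUAK2-CR and were at least 7.21-fold and 6.04-fold lower, taking the limit of 3 counts in each library. The distances include the difference between the groups and are a description.

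The other peptidases outside the 9 members, with the substrates and partners of the members, made 61 tested genes, of which 38 had an adjusted p-value under 0.05, 18 higher and 20 lower in NUAK2-CR, or 62.3% beside 54.5% of all genes tested. Of 14 further prolyl-specific and dipeptidyl peptidases, 11 were tested, 4 rose and 3 fell. TPP1, the lysosomal tripeptidyl peptidase, rose from 6549 ± 845 to 20670 ± 533 normalized counts (SD, n = 3 each; log2 fold change 1.66, adjusted p = 1.74e-08). PRCP, a lysosomal relative of DPP7, rose with a log2 fold change of 0.56 (adjusted p = 0.00135). PREP, the cytosolic prolyl oligopeptidase, fell from 5661 ± 259 to 2876 ± 55.6 (SD, n = 3 each; -0.98, adjusted p = 1.24e-07), and DPP3 fell with -0.62 (adjusted p = 6.83e-05). DPP6 and DPP10, relatives of DPP4 that have lost their activity and serve potassium channels, had 0 counts throughout.

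Of 13 further aminopeptidases, all were tested, 7 fell and 0 rose in edgeR's test, with 0 rising at an unadjusted p under 0.05 and 0 in DESeq2. The share called was 53.8%, beside 54.5% over all genes tested (26.3% higher and 28.2% lower in NUAK2-CR). ERAP2, which trims peptides for MHC class I and lies near LNPEP on chromosome 5, fell from 1509 ± 336 to 148 ± 14.0 (SD, n = 3 each; log2 fold change -3.35, adjusted p = 8.67e-09). ERAP1, whose span (96760813 to 96935854) encloses that of ERAP2 (96875984 to 96919716) and ends just before LNPEP, had -0.02 (adjusted p = 0.909). RNPEP, aminopeptidase B, fell with -0.91 (adjusted p = 3.17e-07). LAP3 and LTA4H fell with -0.30 and -0.22 (adjusted p = 0.00269 and 0.0123). In the neprilysin family, 3 of 6 further genes were tested. None rose (0 in edgeR's test, 0 at an unadjusted p under 0.05 and 0 in DESeq2). PHEX, which acts in phosphate balance, fell with -1.11 (adjusted p = 0.000906), ECE1 and ECE2 had 0.06 and -0.36 (adjusted p = 0.465 and 0.106), and MMEL1, the closest relative of MME, had 0 counts.

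Of 24 genes listed as other surface peptidases, 12 were tested, 5 rose and 3 fell. The share called was 66.7%, beside 54.5% over all genes tested. The list and the 5 that rose include PLAUR, the urokinase receptor, which is no peptidase itself. GGT5, a gamma-glutamyltransferase that cuts leukotriene C4 and glutathione, rose from 21.2 ± 3.17 to 560.4 ± 27.5 normalized counts (SD, n = 3 each; log2 fold change 4.74, adjusted p = 6.66e-10). ACE, which makes angiotensin II, rose with 0.91 (adjusted p = 0.000656), and PLAUR with 0.35 (adjusted p = 0.00203). The membrane serine protease TMPRSS2 fell from 127 ± 14.7 to 8.70 ± 0.23 (SD, n = 3 each; -3.84, adjusted p = 3.5e-07). HPN, another of that class, went from 38, 30 and 29 raw counts in the WT libraries to 0 in each NUAK2-CR library, so it was at least 7.96-fold lower; with fewer reads than the rule for named genes required, it was chosen after its values were seen.

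Of 23 substrates and partners of FAP and DPP4, 12 were tested, 5 rose and 3 fell. The share called was 66.7%, beside 54.5% over all genes tested. The chains of type I collagen, which FAP cuts once denatured, went opposite ways. COL1A2 rose from 34353 ± 643 to 58928 ± 2350 and COL1A1 fell from 6139 ± 1175 to 2761 ± 280.0 normalized counts (SD, n = 3 each; log2 fold changes 0.78 and -1.15, adjusted p = 7.03e-07 and 5.54e-06). The gelatinase MMP2 rose with 1.59 (adjusted p = 4.75e-09). ADA, adenosine deaminase, which binds DPP4, fell with -2.11 (adjusted p = 1.82e-06). CXCL12, a chemokine that DPP4 inactivates, had 0.01 (adjusted p = 0.896), and SERPINF2, the gene of alpha-2-antiplasmin, had 0 counts.

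Of 27 substrates and partners of the zinc enzymes, 12 were tested, 6 rose and 3 fell. The share called was 75%, beside 54.5% over all genes tested. AGT, angiotensinogen, the source of the peptides that ACE, ANPEP and ENPEP process, rose from 111 ± 6.82 to 733 ± 44.3 normalized counts (SD, n = 3 each; log2 fold change 2.73, adjusted p = 3.51e-09). BDKRB2, a receptor for bradykinin, which MME degrades, rose from 35.4 ± 5.74 to 313 ± 54.3 (SD, n = 3 each; 3.14, adjusted p = 1.17e-07). EDN1 and TACR1, the genes of endothelin 1 and the substance P receptor, fell with -0.84 and -0.77 (adjusted p = 0.000508 and 0.000467).

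**Figure D4:**
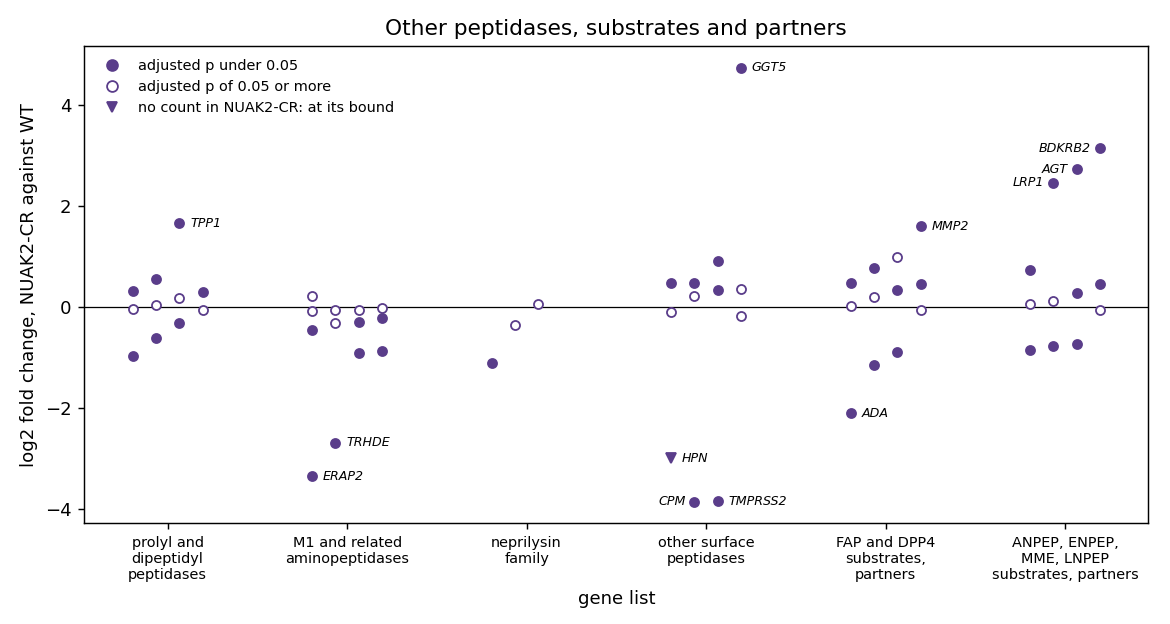
Log2 fold change of NUAK2-CR against WT (vertical) of the tested genes in 6 lists of peptidases, substrates and partners, members left out; filled marks had an adjusted p-value under 0.05, open marks did not, and the triangle puts HPN, with no count in NUAK2-CR, at its bound. In the aminopeptidase list the 7 filled points, 53.8% of the list beside 54.5% of all genes tested, are all below 0. The other lists but the neprilysin family hold filled points on both sides.

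FAP, ANPEP and MME are also found on fibroblasts and pericytes, so the markers of those cells were read beside them. Of 14 fibroblast and pericyte markers, 13 were tested, 7 rose and 5 fell. The share called was 92.3%, beside 54.5% over all genes tested (26.3% higher and 28.2% lower in NUAK2-CR). The summed normalized counts of these markers were 65140.4 to 68944 in WT and 84080.5 to 89578 in NUAK2-CR. COL1A2 and THY1 had the largest counts in these sums and so weigh most in them. COL1A2 rose from 34353 ± 643 to 58928 ± 2350, while THY1 fell from 21988 ± 2674 to 15101 ± 696 (SD, n = 3 each). ACTA2 and DCN rose with log2 fold changes of 4.52 and 5.97 (adjusted p = 1.07e-11 and 2.77e-07), while COL1A1 and PDGFRA fell with -1.15 and -2.54 (adjusted p = 5.54e-06 and 1.65e-06); none of the 14 was at 0 in all libraries. Of 14 glioma and astrocyte markers, 11 were tested, 1 rose (EGFR) and 7 fell, a share called of 72.7%. Their sums were 394908 to 445481 in WT and 201904 to 216007 in NUAK2-CR. Among 11 immune markers, PTPRC, CD3E, MS4A1, AIF1 and ITGAM had at most 3 counts in any library, and the sum was 870.2 to 991 in WT and 243 to 293 in NUAK2-CR, with CD68 and CSF1R, the 2 tested, falling (-1.59 and -2.46) and 0 rising at an unadjusted p under 0.05 or in DESeq2. The sums of 7 endothelial markers were 271 to 361 in WT and 233 to 246 in NUAK2-CR. Of these, 2 rose and 1 fell. PECAM1 rose (4.53), from 2, 0 and 0 counts in WT to 12, 14 and 14 in NUAK2-CR, and VWF rose (1.69). KDR fell (-1.24) and had the largest counts in these sums, so it weighs most in them. The sums of 6 epithelial markers were 6014 to 6715.5 in WT and 6758 to 7354 in NUAK2-CR. KRT18 rose (0.64) and KRT8, CLDN4 and KRT19 fell (-0.56, -1.89 and -3.25). The part of these markers in the values of FAP, ANPEP and MME was not tested.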

How the data were processed

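RNA of 3 WT and 3 NUAK2-CR libraries was sequenced after poly(A) selection with a stranded kit. Per the study's methods and the labels, the authors used Trimmomatic, HISAT2 on hg38 and featureCounts with default settings. The deposited values are raw counts per gene, whole numbers with no normalization; the annotation and the strand setting are not given in the sources used here, and GENCODE has genes on the opposite strand over FAP, DPP4, DPP9, ENPEP, LNPEP and MME whose reads may be counted with them. Of 28395 identifiers, 27745 matched a RefSeq symbol.

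Genes were filtered with filterByExpr, scaled with TMM and fitted with edgeR 4.0.16 (glmQLFit, glmQLFTest, default prior count; R 4.3.3), with Benjamini-Hochberg adjustment over 14873 genes. Standard errors are the log2 fold change over the root of F. The alternatives are DESeq2 1.42.0, 2 filters, 2 scalings, a prior count of 2, a replicate block, each library left out, and a log2 fold change over 1. Lengths are from GENCODE 44 and positions from RefSeq GRCh38.p14. Members and lists were chosen with earlier results of these data known. The rule for named genes took the members, NUAK2, the 2 highest and 2 lowest log2 fold changes of each list past the threshold whose higher group averaged 100 normalized counts or more, the 5 nearest profiles and the 3 listed neighbours on each side. Other genes in the text were chosen after their values were seen, as were the window of 40 neighbours and the motifs. Intervals from the limit of 3 counts cover counting error only. No 2 libraries of a group agreed within sampling noise (chi-square over degrees of freedom 6.25 to 57.6). The value of 1 immune marker is not reported here.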

Additional observations from a re-analysis of the deposited data

How the results depend on the processing

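The count of members called was 4 in most alternatives, 3 with at least 10 counts in every library, which removed ANPEP, and 5 without WT replicate 2, where DPP9 passed. Members past both thresholds were 2, except 1 with that filter and 3 with an absolute log2 fold change over 1. Members called lower were 0 with that filter and 2 without WT replicate 2. DPP9 was 0.0070 in log2 fold change without WT replicate 1, a reversal of an uncalled value, and -0.25 without WT replicate 2. The other 6 members tested kept their sign and side of the threshold in each alternative that fitted them. The other peptidases and partners called ranged from 34 to 43 around 38. With all exons as length, a choice made after seeing the data, FAP had rank 6 in place of 5 in WT and rank 3 in place of 4 in NUAK2-CR. The replicate block called the same number of members, 4, and 39 other genes. Same-numbered libraries had correlations of deviations of 0.0428, -0.0352 and 0.0478, so no pairing by number was seen. Not every library correlated best with its own number, and 3 libraries per group cannot exclude a pairing. Of the glioma markers, 1 rose in edgeR's test and 3 in DESeq2. Depth limits DPP4 and ENPEP.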
